A study of Mus musculus with 6 samples.

Results

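Cluster 1 of the tumor cells, a cycling population that carries Rrm2, Pclaf, Birc5, Ccna2 and Tyms, was described within H22 liver tumors of control and chronically stressed mice. Its members were all cells that the study's deposited annotation calls tumor cells and places in cluster 1. They were 4894 of 29638 tumor cells, and of 58794 annotated cells in all. H22 is a mouse hepatoma line, implanted here into the liver of male wild-type C57BL/6J mice, which were 8 weeks old when obtained. Tumor cells are those the study named so, and whether each derived from the injected line was not tested. The stress group (3 mice) went through 21 days of chronic unpredictable mild stress, a model in which mice meet changing mild stressors each day, before the cells were implanted. The control group (3 mice) was implanted without stressors. Each mouse gave 1 droplet-based single-cell RNA library, in which transcripts are counted as UMIs (unique molecular identifiers, one per captured RNA molecule). Cluster 1 held 1073, 1084 and 820 cells in the control mice and 615, 811 and 491 cells in the stress mice. These numbers were not compared between groups, because genes that define the cluster differed between them.

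The cell cycle runs from G1 through S phase, in which DNA is copied, to G2 and mitosis (M). Origins are licensed by loading the MCM helicase before S phase and fired during S phase. Forks are then extended by DNA polymerases held on the PCNA clamp. The dNTP supply depends on ribonucleotide reductase (Rrm2 is its regulated subunit) and thymidylate synthase (Tyms). Transcription of the G1/S genes is driven mainly by E2F factors. The later G2/M genes are driven by the B-MYB and FOXM1 complexes, which act through CHR elements, and their promoters often hold CCAAT boxes as well. Pclaf is a PCNA-binding factor, Ccna2 encodes cyclin A2 of S and G2 phase, and Birc5 encodes survivin of the chromosomal passenger complex, which acts in mitosis.

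The promoters of 4 genes are shown because the results turn on these genes: Rrm2 and Pclaf, which mark the cluster, Pcna, a replication fork gene that was higher in stress mice, and Aurka, the gene of the mitotic Aurora A kinase, which was lower. Each spans 250 bases before to 50 after the RefSeq start, 5′ to 3′ on the strand of the gene, in build GRCm38.p6. The windows lie at chr12:24708004-24708303 (plus strand, Rrm2), chr9:65890073-65890372 (plus strand, Pclaf), chr2:132253131-132253430 (minus strand, Pcna) and chr2:172370521-172370820 (minus strand, Aurka). Capitals mark matches on either strand to the CHR letters TTTGAA, to the CCAAT box CCAAT and to the E2F-type letters TTTCCCGC, TTTGGCGC or TTTCGCGC. None of these motifs contains another.
Rrm2: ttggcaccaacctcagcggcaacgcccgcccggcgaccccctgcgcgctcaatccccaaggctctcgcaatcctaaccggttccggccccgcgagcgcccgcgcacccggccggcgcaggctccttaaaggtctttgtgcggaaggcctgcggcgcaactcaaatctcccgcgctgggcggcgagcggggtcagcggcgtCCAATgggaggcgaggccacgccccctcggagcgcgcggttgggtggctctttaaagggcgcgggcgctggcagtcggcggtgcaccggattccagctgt
Pclaf: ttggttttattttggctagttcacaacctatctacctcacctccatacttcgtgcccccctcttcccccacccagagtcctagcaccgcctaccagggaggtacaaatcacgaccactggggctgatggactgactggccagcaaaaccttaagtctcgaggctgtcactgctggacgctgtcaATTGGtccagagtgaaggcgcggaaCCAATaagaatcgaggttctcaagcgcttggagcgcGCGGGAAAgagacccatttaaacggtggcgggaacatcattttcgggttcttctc
Pcna: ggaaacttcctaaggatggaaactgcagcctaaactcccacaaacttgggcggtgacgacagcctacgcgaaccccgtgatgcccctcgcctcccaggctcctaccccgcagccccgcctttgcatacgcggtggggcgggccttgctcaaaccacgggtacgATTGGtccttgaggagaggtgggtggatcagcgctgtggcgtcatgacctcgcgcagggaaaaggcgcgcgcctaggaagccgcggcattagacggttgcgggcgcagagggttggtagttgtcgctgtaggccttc
Aurka: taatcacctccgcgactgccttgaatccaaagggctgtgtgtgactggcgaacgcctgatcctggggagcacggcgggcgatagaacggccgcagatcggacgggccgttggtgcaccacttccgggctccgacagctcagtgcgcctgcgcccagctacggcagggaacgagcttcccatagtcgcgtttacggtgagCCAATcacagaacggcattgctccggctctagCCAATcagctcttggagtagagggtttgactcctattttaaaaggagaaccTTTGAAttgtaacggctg
The Aurka window held 1 CHR match and 2 CCAAT boxes, the Pclaf window held 1 E2F-type match and 2 CCAAT boxes, and the Rrm2 and Pcna windows each held 1 CCAAT box. The windows of Birc5 and Tyms, not shown, held no match to any of the letters. Of the 48 genes of a G2/M and mitosis list, 40 had a promoter in the table, and 72.5% of those held the CHR letters, against 18.1% of the 27025 promoters of all genes. CCAAT boxes were in 77.5% of them, against 37.9% of all. Both motifs were also found in other lists: of the 58 matched replication-dependent histone promoters 86.2% held a CCAAT box, 44.8% the CHR letters and 17.2% an E2F-type match. Of the 71 genes of 3 replication lists (origin licensing and firing, replication fork, nucleotide supply), 60 were matched. Of these, 26.7% held an E2F-type match, against 1.91% of all promoters and 5% of the G2/M promoters, 58.3% held a CCAAT box and 15% held the CHR letters. These are matches of letters, not binding sites.

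The sums of cluster 1 ran from 20598974 to 36167661 UMIs per mouse. Levels are given as CPM, the UMIs of a gene scaled to 1000000 UMIs of all cluster 1 cells of that mouse. The median UMI number per cell was 28938, 32892.5 and 39286.5 in the control mice and 41818, 37984 and 41795 in the stress mice. The groups overlapped (two-sided exact permutation test, p = 0.2, and 0.1 is the smallest p that 3 against 3 mice allow). The control libraries were counted with Cell Ranger 9.0.0 and the stress libraries with 7.1.0, and the version therefore cannot be told apart from the stress. Libraries shared 13 to 40 cell barcodes per pair, and 3 in all among cluster 1 cells. A doublet caller marked 55 of the 4894 cells.

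Of the 10 tumor clusters, cluster 1 ranked first for each of the 5 markers, with cluster 4 close behind (Rrm2 162, Pclaf 329 and Tyms 102 CPM there) and cluster 14 level for Ccna2 (145 CPM in both). Since clusters were drawn from the same transcripts, this is a description with no test. Rrm2 stood at 189 ± 28.8 CPM (SD, n = 6 mice) in cluster 1 and at 60.7 ± 20.8 CPM in the other tumor cells. Pclaf stood at 359 ± 24.2 against 119 ± 37.5 CPM, and Tyms at 122 ± 22.9 against 45.9 ± 11.9 CPM. The remaining markers were as far apart, with Birc5 at 516 ± 75.3 against 187 ± 67.5 CPM and Ccna2 at 145 ± 22.7 against 52.7 ± 19.1 CPM. In every mouse each marker was higher in cluster 1 than in the other tumor cells of that mouse. At least 1 UMI of Pclaf was found in 96.3% to 99.3% of cluster 1 cells of a mouse and of Rrm2 in 85.1% to 95.7%, at median depths of 28938 to 41818 UMIs. Endothelial cells, of which few should cycle, gave 4.23% to 8.54% for Pclaf and 3.29% to 6.98% for Rrm2, at 3608 to 5832 UMIs. The other tumor cells gave 38.5% to 63.9% for Pclaf and 31.9% to 54.6% for Rrm2, at 20907 to 30995 UMIs. With every cell thinned to 3000 UMIs, Pclaf was found in 56.6% to 65.0% of cluster 1 cells and 13.3% to 27.9% of other tumor cells, and Rrm2 in 29.5% to 41.3% and 8.06% to 19.02%. At this depth Ccna2 was found in 25.3% to 37.8% of cluster 1, 21.5% to 36.0% of cluster 4 and 17.5% to 40.5% of cluster 14 cells. Birc5 gave 61.9% to 79.4%, 56.8% to 75.2% and 64.3% to 82.3% in the same order, so for these 2 markers the clusters overlapped.

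**Figure D1:**
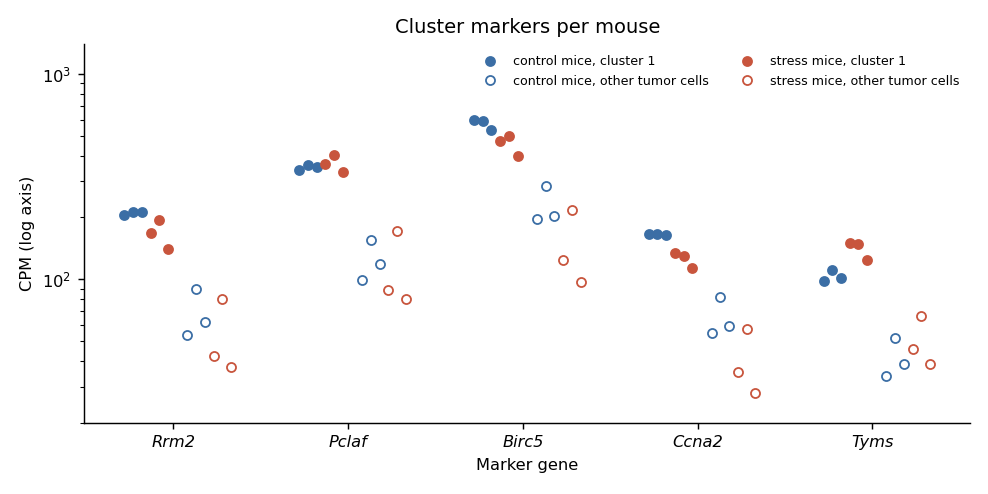
CPM of the 5 cluster markers (log axis) in cluster 1 (filled points) and in all other tumor cells (open points), 1 point per mouse, in the order control 1 to 3 and stress 1 to 3. Filled points lie above open points for every gene and mouse, and Tyms is the marker whose filled stress points all lie above its filled control points.

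An S-phase label fits these cells only in part. The 15 genes with the highest ratio of cluster 1 over other tumor cells (ratios from 2.50 to 3.11) held Rrm2, Pclaf, Tyms, the thymidine kinase Tk1 and the clamp loader subunit Rfc5, but also the mitotic genes Cdc20, Ccnb1, Ccnb2, Spc24, Pbk and Cdca3. Summed over its 32 genes, the replication fork list stood at 2393 ± 139 CPM in cluster 1, 2342 ± 178 CPM in cluster 4 and 1862 ± 178 CPM in cluster 14 (SD, n = 6 mice). The licensing list (20 genes) gave 1592 ± 109, 1549 ± 132 and 1395 ± 93.7 CPM in the same order. Cluster 1 was thus highest of 10 tumor clusters in both lists, with cluster 4 within the spread between mice. For the nucleotide supply list (19 genes) it was again highest, at 2782 ± 164 CPM against 2512 ± 160 CPM in cluster 4. Cluster 14 was highest for the G2/M list, at 5299 ± 783 CPM, followed by cluster 4 at 5110 ± 829 CPM and cluster 1 at 4620 ± 618 CPM, a spread that pools control and stress mice and covers all 3. In control mice, mean G2/M UMIs per thinned cell were 15.2, 15.2 and 14.5 in cluster 1 and 17.5, 17.6 and 16.6 in cluster 4. In stress mice they were 12.5, 12.7 and 11.6 in cluster 1 and 13.2, 13.7 and 11.4 in cluster 4. Clusters 1 and 4 lay further apart in immediate-early genes, which are induced within minutes of a stimulus and summed to 4738 ± 545 CPM in cluster 1 and 8558 ± 1223 CPM in cluster 4. Replication-dependent histones summed to 878 ± 271 and 1336 ± 567 CPM, ranges that overlapped with control and stress mice pooled. The lowest cluster 4 mouse, at 749 CPM, was still above each control mouse of cluster 1 (713, 555 and 640 CPM). The stress mice of cluster 1 were at 1160, 1066 and 1133 CPM, and the highest cluster 4 mouse at 2039 CPM. Among the genes lowest in cluster 1 relative to other tumor cells were fibronectin (Fn1, 242 ± 139 against 728 ± 388 CPM), the nuclear RNA Malat1 (1970 ± 571 against 5078 ± 1541 CPM) and the stress factor Atf3 (98.2 ± 17.1 against 235 ± 29.4 CPM).

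**Figure D2:**
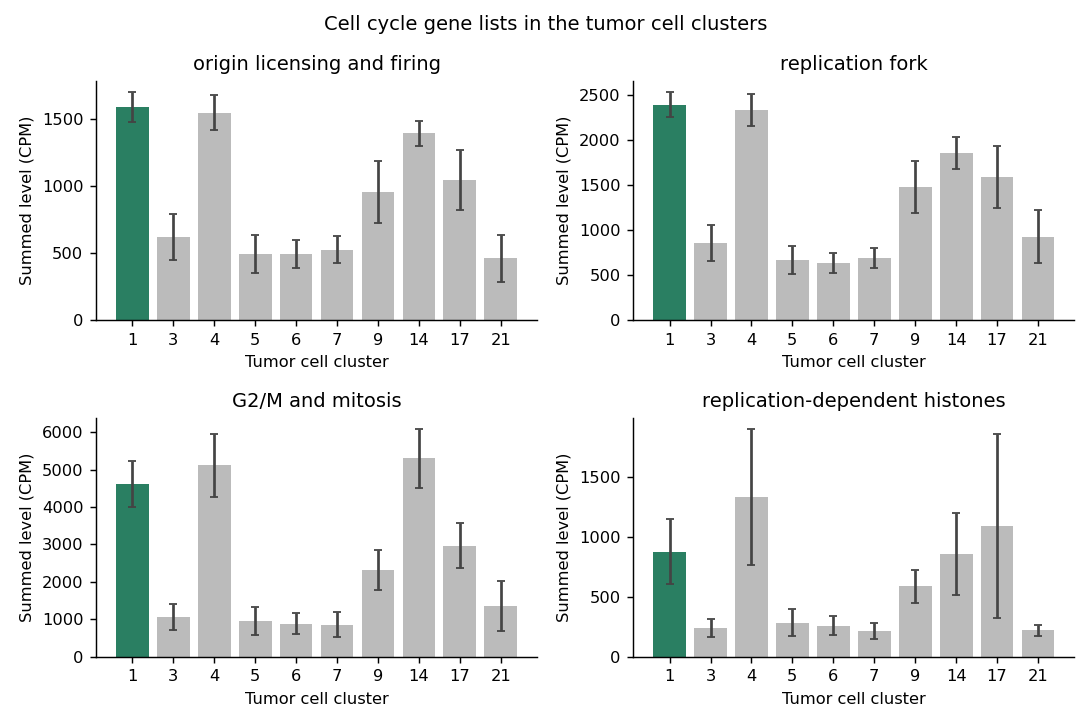
Summed CPM of 4 cell cycle gene lists in each of the 10 tumor cell clusters, as the mean over 6 mice with SD bars and cluster 1 in green. Cluster 1 is highest for origin licensing and firing and for the replication fork, and ranks 3 for the G2/M and mitosis list and for replication-dependent histones.

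To compare single cells at equal depth, each cell was thinned to 3000 UMIs, which left out no cluster 1 cell. A median cluster 1 cell then held 20, 20 and 20 UMIs of the 3 replication lists in the control mice and 19, 22 and 17 in the stress mice. Of the G2/M list it held 13, 14 and 13 UMIs in control and 11, 11 and 10 in stress mice. The replication lists overlapped between groups, while every stress mouse was below every control mouse for the G2/M list. The share of cells with more replication than G2/M UMIs was 67.2%, 67.6% and 71.0% in control and 73.0%, 79.8% and 74.1% in stress mice. It was higher in the other tumor cells of every mouse, at 79.9%, 72.3% and 79.3% in control and 85.1%, 82.4% and 83.6% in stress mice. The lists differ in size, so this share alone does not mark S-phase cells. Across the cells of cluster 1 the Pearson correlation of both sums was -0.27, -0.31 and -0.26 in the control mice and -0.18, -0.23 and -0.01 in the stress mice, so that it was negative in 5 mice and near 0 in stress mouse 3. Both sums share the fixed total of each cell.

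**Figure D3:**
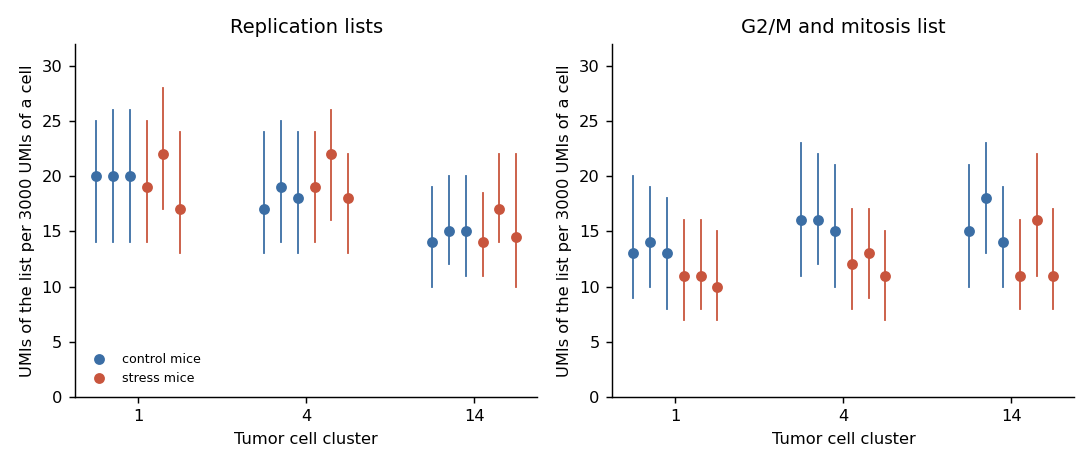
UMIs of the 3 replication lists (left) and of the G2/M list (right) per cell thinned to 3000 UMIs, for the 3 clusters with most cell cycle transcripts. Points are medians over the cells of 1 mouse and lines span the quartiles. In cluster 1 the G2/M medians are 13 to 14 in control and 10 to 11 in stress mice, and the replication medians overlap.

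Chronic stress was compared with control within cluster 1 on UMIs summed per mouse, with edgeR over 14866 genes. At an adjusted p of 0.05, 2165 genes (14.6%) were called, 1063 higher (7.15%) and 1102 lower (7.41%) in stress mice. Control and stress CPM did not overlap in 18.5% of all genes with the stress mice higher and in 16.2% with the stress mice lower. The median log2 fold change of all genes was -0.01. The number of calls varied with the mouse left out. Leaving out control mouse 1, 2 or 3 gave 847, 2923 and 760. Leaving out stress mouse 1, 2 or 3 gave 1547, 987 and 1173. Each of these fits also held fewer mice.

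The G2/M and mitosis genes fell as a group. Of the 48 genes, 26 were lower and 0 higher in stress mice, with a median log2 fold change of -0.38, where 7.41% of all genes were lower. The summed level of the list was 5266, 5299 and 4915 CPM in the control mice and 4184, 4196 and 3863 CPM in the stress mice, groups that did not overlap. Aurka, which drives centrosome maturation and spindle assembly, stood at 71.6, 83.7 and 61.6 CPM in control and at 35.9, 38.6 and 33.0 CPM in stress mice. It fell by 1.04 ± 0.12 on the log2 scale (SE, edgeR adjusted p = 0.00287). Kif2c, a kinesin that takes microtubules apart at centromeres, went from 28.3 ± 1.71 to 16.3 ± 1.78 CPM (log2 fold change -0.83 ± 0.09, edgeR adjusted p = 0.0026). Ccnf, encoding cyclin F, fell from 23.5 ± 1.28 to 14.9 ± 1.66 CPM (edgeR adjusted p = 0.0123), and the phosphatase gene Cdc25b, an activator of CDK1, from 9.83 ± 0.836 to 6.25 ± 0.147 CPM (edgeR adjusted p = 0.00975). These 4 genes were named as the called members with the largest fold changes. In each, no stress mouse reached a control mouse, as held for 16.2% of all genes. Cyclin B1 (Ccnb1), picked after its values were seen, also fell (log2 fold change -0.60 ± 0.10, edgeR adjusted p = 0.00891). Not all of the list passed: Top2a, the topoisomerase of mitotic chromosomes and likewise picked afterwards, had a log2 fold change of -0.21 ± 0.09 (edgeR adjusted p = 0.155). In these sums, fewer cells late in the cycle and less G2/M RNA per cell cannot be told apart. In the other tumor cells of the same mice the median of the list was -0.72. Those cells pool clusters of unlike G2/M level. Cluster 14, the highest for this list, held 541, 430 and 362 of their 6310, 4655 and 4142 cells in control mice. In stress mice it held 175, 145 and 126 of 3723, 3056 and 2858 cells, and the part of this shift in the median was not tested. Against cluster 4 alone, the median difference in log2 fold change (cluster 1 minus cluster 4) was 0.07, with 0 of 48 genes called. The number of lower genes was 13 with control mouse 1 left out, 15 with control mouse 3 or stress mouse 2 left out, and 17 with stress mouse 3 left out.

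The replication lists did not move as groups. Of the 20 licensing genes 2 were higher and 1 lower (median log2 fold change 0.02), of the 32 fork genes 4 higher and 1 lower (median -0.07), and of the 19 nucleotide supply genes 1 higher and 1 lower (median -0.10), where 7.15% of all genes were higher and 7.41% lower. Single members did rise. Pcna, the sliding clamp, stood at 140, 162 and 158 CPM in control and at 212, 231 and 233 CPM in stress mice (log2 change 0.53 ± 0.08, edgeR adjusted p = 0.00708). The catalytic subunit of polymerase epsilon, Pole, rose from 20.6 ± 0.686 to 32.2 ± 3.43 CPM (0.61 ± 0.09, edgeR adjusted p = 0.00505) and the primase subunit Prim1 from 50.5, 52.8 and 57.6 CPM in control to 76.6, 85.2 and 79.2 CPM in stress mice (0.55 ± 0.08, edgeR adjusted p = 0.00558). For all 3 genes, named by the size of their change, the stress values lay wholly above the control values, as held for 18.5% of all genes. In the opposite direction, Rfc5 fell from 73.8 ± 0.973 to 52.3 ± 5.32 CPM (-0.53 ± 0.09, edgeR adjusted p = 0.00944). The remaining calls were smaller: the origin recognition subunit Orc2 (0.37 ± 0.08), the GINS subunit Gins1 (0.46 ± 0.10) and the polymerase epsilon subunit Pole2 (0.35 ± 0.08, picked after its values were seen) rose, and the origin-firing kinase Cdc7 (-0.37 ± 0.10) and the guanine nucleotide enzyme Impdh2 (-0.32 ± 0.09) fell. Orc2 and Gins1 lost their calls on leaving out control mouse 1 (edgeR adjusted p = 0.0796 and 0.0661), control mouse 3 (0.0716 and 0.0848) or stress mouse 2 (0.0568 and 0.0674), Impdh2 on leaving out control mouse 1, control mouse 3, stress mouse 2 or stress mouse 3 (0.109 to 0.138), and Cdc7 on leaving out any mouse (0.0547 to 0.114). Pole2 lost its call without control mouse 1 (edgeR adjusted p = 0.103), control mouse 3 (0.0935), stress mouse 1 (0.0506) or stress mouse 2 (0.0748).

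Of the 5 cluster markers, Tyms was called higher and Ccna2 lower (20% each way, where 7.15% of all genes were higher and 7.41% lower). Tyms was at 98.3, 110 and 102 CPM in control and at 151, 148 and 125 CPM in stress mice (log2 change 0.42 ± 0.11, edgeR adjusted p = 0.0346). Ccna2 was at 166, 165 and 164 CPM in control and at 134, 129 and 113 CPM in stress mice (log2 change -0.42 ± 0.10, edgeR adjusted p = 0.0265). Neither gene overlapped between groups, as held for 18.5% of all genes with the stress mice higher and 16.2% with them lower. Both calls were lost when control mouse 1 (edgeR adjusted p = 0.125 for Tyms and 0.0795 for Ccna2), control mouse 3 (0.121 and 0.0832) or stress mouse 2 (0.0964 and 0.0847) was left out. The call of Tyms was also lost with stress mouse 1 left out (edgeR adjusted p = 0.0798), and that of Ccna2 with stress mouse 3 left out (0.0744). Birc5 (599, 591 and 535 against 473, 498 and 400 CPM) and Rrm2 (205, 212 and 214 against 168, 195 and 141 CPM) were below the control values in every stress mouse but did not pass, with edgeR adjusted p = 0.0592 and 0.0705. Of 13 alternatives both passed in 3, with DESeq2 (0.0252 and 0.047), with no filter on low counts (edgeR, 0.0245 and 0.0272) and with a replicate block (edgeR, 0.0225 and 0.0383). Pclaf had a log2 fold change of 0.03 ± 0.09 (edgeR adjusted p = 0.83), with overlapping groups.

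Among the 19 G1/S cyclins and E2F genes, 1 was higher (5.26%, against 7.15% of all genes) and 3 lower (15.8%, against 7.41%). Cyclin E2 (Ccne2), the partner of CDK2 at S-phase entry, stood at 22.3, 24.2 and 20.7 CPM in control and at 34.3, 38.5 and 37.2 CPM in stress mice (log2 change 0.68 ± 0.09, edgeR adjusted p = 0.00385). Cyclin D3 (Ccnd3), the partner of CDK4 and CDK6 in G1, went the other way, from 45.7 ± 5.22 to 32.7 ± 1.70 CPM (-0.51 ± 0.10, edgeR adjusted p = 0.0125). E2f1 was called lower as well (-0.50 ± 0.11, edgeR adjusted p = 0.0207), a call that was lost without control mouse 1 (0.0517), control mouse 3 (0.067) or stress mouse 3 (0.065). Cdk6 (-0.39 ± 0.08, edgeR adjusted p = 0.0156) lost its call without control mouse 1 (0.0614) or control mouse 3 (0.0507). Of 21 DNA damage response genes 2 were lower (9.52%, near the 7.41% of all genes) and none higher, the base excision repair scaffold Xrcc1 (-0.61 ± 0.10, edgeR adjusted p = 0.00663) and the damage-marking histone gene H2ax (-0.65 ± 0.16, edgeR adjusted p = 0.0307). Of 20 p53 targets and CDK inhibitors 2 were lower (10%, again near that share) and none higher, the CDK4/6 inhibitor gene Cdkn2c (-0.64 ± 0.13, edgeR adjusted p = 0.015) and Phlda3 (-0.56 ± 0.15, edgeR adjusted p = 0.0439). Leaving out control mouse 1 or stress mouse 2 ended the calls of H2ax (edgeR adjusted p = 0.0904 and 0.0965) and Cdkn2c (0.0538 and 0.0581), stress mouse 3 that of H2ax (0.105), and any mouse but stress mouse 2 that of Phlda3 (0.0574 to 0.129).

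Counts of replication-dependent histone genes were higher in stress mice. These genes are transcribed in S phase, and their mRNAs normally end in a stem-loop instead of a poly(A) tail. The paper's libraries were primed with poly(dT), so the counts may cover only part of the histone mRNA. Which part was captured was not tested. Of 68 genes on the list 58 passed the filter on low counts, and of these 22 were higher and 0 lower (median log2 fold change 0.67), where 7.15% of all genes were higher. Their summed level was 713, 555 and 640 CPM in control and 1160, 1066 and 1133 CPM in stress mice, with no overlap. The largest fold changes sat in genes of very low level, such as H1f1 at 0.136 ± 0.0527 against 0.766 ± 0.298 CPM. H2bc15 rose from 3.14 ± 0.370 to 8.84 ± 0.733 CPM (1.46 ± 0.15, edgeR adjusted p = 0.00219). Among members of higher level, picked after their values were seen, the linker histone gene H1f4 was at 41.9, 36.9 and 39.0 CPM in control and at 92.1, 97.2 and 80.5 CPM in stress mice (1.17 ± 0.10, edgeR adjusted p = 0.00201). Reads of near-identical histone genes can be split or dropped in counting, so values of single members are uncertain. In the other tumor cells the median of the list was 0.66. Without control mouse 3, 14 of the genes were called higher.

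**Figure D4:**
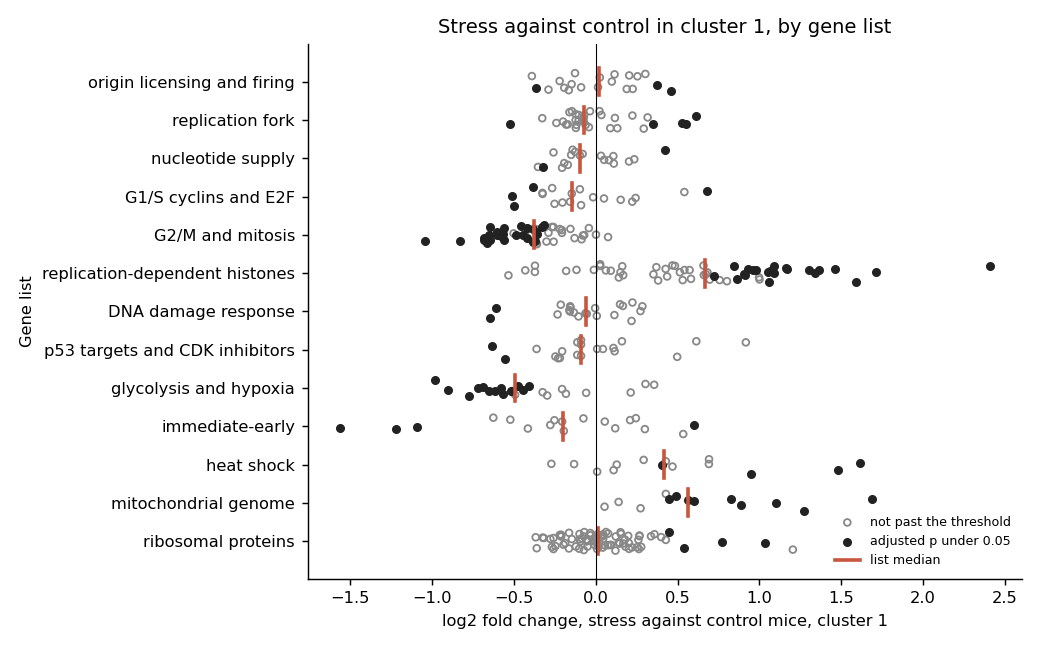
Log2 fold change of stress against control mice in cluster 1 for every tested gene of 13 gene lists, with filled points past an edgeR adjusted p of 0.05 and a red bar at the median of the list. The called G2/M and glycolysis genes lie left of 0 and the called histone and mitochondrially encoded genes right of it, while the 3 replication lists centre between -0.10 and 0.02.

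Genes of glycolysis and the hypoxia response were lower in stress mice. Of 23 tested, 13 were lower and 0 higher (median log2 fold change -0.49), where 7.41% of all genes were lower. The list summed to 7715, 8763 and 8001 CPM in control and to 6167, 6357 and 6441 CPM in stress mice. Pkm, encoding pyruvate kinase, stood at 688, 874 and 723 CPM in control and at 379, 520 and 471 CPM in stress mice (log2 change -0.77 ± 0.12, edgeR adjusted p = 0.00663). The hypoxia-induced genes Ankrd37 (-0.98 ± 0.12, edgeR adjusted p = 0.00395) and Bnip3, a mitophagy receptor (-0.90 ± 0.16, edgeR adjusted p = 0.0106), fell further. The glucose transporter Slc2a1 fell from 94.6 ± 19.1 to 58.7 ± 5.22 CPM (-0.72 ± 0.13, edgeR adjusted p = 0.0122), a call lost without stress mouse 2 (0.0514). The median of the list was -0.57 in the other tumor cells. Log2 fold changes of Pkm, Ankrd37, Bnip3 and Slc2a1 were -0.67, -1.28, -0.89 and -0.69 in endothelial cells. Monocytes gave -0.52, -1.50, -0.96 and -0.49 in the same order. Without stress mouse 2, 8 of the genes were called lower in cluster 1.

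Mitochondrially encoded mRNAs were higher, 9 of 13 called and none lower (median log2 fold change 0.56), where 7.15% of all genes were higher. Their summed level was 30513, 35713 and 40933 CPM in control and 43104, 53600 and 45564 CPM in stress mice, so the highest control and the lowest stress mouse lay close. mt-Nd2, a subunit of complex I, rose from 1064 ± 126 to 2340 ± 305 CPM (1.10 ± 0.12, edgeR adjusted p = 0.0026). mt-Atp8 and mt-Nd4l, with log2 fold changes of 1.69 and 1.27, overlap their neighbours mt-Atp6 and mt-Nd4, and reads in the overlap cannot be assigned. The median of the list was 0.51 in the other tumor cells, and mt-Nd2 had log2 fold changes of 0.99 in endothelial cells and 1.21 in monocytes. The number called in cluster 1 was 4 with control mouse 1 or stress mouse 3 left out and 5 with stress mouse 2 left out. A high mitochondrial share is also read as a sign of cell quality, and its part in the result was not tested. Of the heat shock genes, 4 of 14 were higher (28.6%, against 7.15% of all genes) and 0 lower, led by the inducible HSP70 genes Hspa1a (1.62 ± 0.37) and Hspa1b (1.48 ± 0.23), a pair of near-identical genes, and by their co-chaperone gene Dnajb1 (0.95 ± 0.17, edgeR adjusted p = 0.0111). Hspa1a lost its call without control mouse 3 (edgeR adjusted p = 0.0838), stress mouse 1 (0.0635) or stress mouse 2 (0.0542). The constitutive HSP70 gene Hspa8 was called too (0.40 ± 0.10, edgeR adjusted p = 0.0285), a call lost on leaving out any mouse but control mouse 2 (0.0561 to 0.135). The number of heat shock genes called was 9 without control mouse 2, and 2 without control mouse 3, stress mouse 1 or stress mouse 2.

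Of 18 immediate-early genes 3 were lower (16.7%, against 7.41% of all genes) and 1 higher (5.56%, below the 7.15% of all genes). Fos, an AP-1 subunit, stood at 671, 646 and 534 CPM in control and at 247, 167 and 221 CPM in stress mice (log2 change -1.56 ± 0.18, edgeR adjusted p = 0.0026). Egr1 stood at 750, 775 and 770 CPM in control and at 327, 263 and 413 CPM in stress mice (-1.22 ± 0.16, edgeR adjusted p = 0.00416), and Ier2 fell by 1.10 ± 0.15 (edgeR adjusted p = 0.00442). Ier5 was higher in every stress mouse, at 301 ± 22.3 against 195 ± 8.69 CPM (0.60 ± 0.10, edgeR adjusted p = 0.00891). These transcripts also respond to tissue dissociation, whose part here was not tested.

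The 10 largest rises and 10 largest falls were taken among called genes whose mean reached 50 CPM in at least 1 of the groups, a limit that some genes met only in the group where they were high. They held no gene of the cell cycle lists. Camk1d, encoding a calmodulin-dependent kinase, stood at 89.5, 95.4 and 95.1 CPM in control and at 364, 594 and 619 CPM in stress mice (log2 change 2.45 ± 0.16, edgeR adjusted p = 0.000964). Lars2, the mitochondrial leucyl-tRNA synthetase gene, followed at 57.9 ± 8.31 against 282 ± 111 CPM (2.24 ± 0.25), then Gphn, encoding gephyrin (1.95 ± 0.18). Below mt-Atp8 and Hspa1a, given above, came Cmss1 (1.52 ± 0.20). In cells of other kinds the values of Camk1d, Lars2, Gphn and Cmss1 were positive too: in endothelial cells the log2 fold changes were 2.60, 2.83, 2.70 and 2.96 and in monocytes 1.91, 2.67, 2.68 and 3.29, in the same order. Differences between these cell types were not tested. With Cdk8 (1.28 ± 0.21) and Gm19951 (2.14 ± 0.27) they make up a list of 6 genes taken from earlier results of these data, all 6 called higher, which is no independent evidence. Among the genes that fell, Dapk1, a death-associated kinase gene, went from 84.0 ± 29.1 to 18.3 ± 6.03 CPM (-2.22 ± 0.32, edgeR adjusted p = 0.00523), with -2.29 in the other tumor cells, -0.73 in endothelial cells and -0.40 in monocytes. Ctla4, known as an inhibitory receptor of T cells, fell from 66.3, 55.8 and 62.4 CPM in control to 23.4, 20.6 and 16.1 CPM in stress mice (-1.64 ± 0.15, edgeR adjusted p = 0.00201). Its log2 fold change was -1.82 in the other tumor cells, -1.46 in endothelial cells and -0.83 in monocytes. All 6 lymphoid markers together summed to at most 6.65 CPM in any mouse, and the source of the Ctla4 transcripts was not tested. Nudcd3, Wdr89 and Map7 fell by 1.48, 1.30 and 1.36 on the log2 scale, and in endothelial cells their log2 fold changes were -1.14, -1.40 and -1.51 and in monocytes -1.44, -1.28 and -1.40. What these cell types share in the libraries was not tested.

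**Figure D5:**
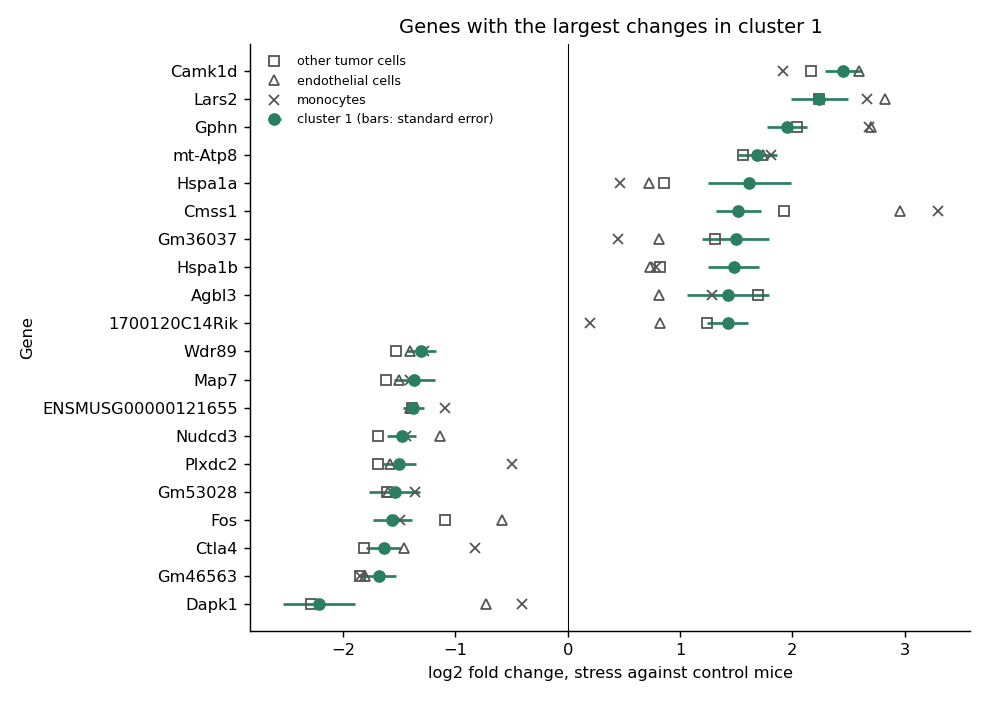
Log2 fold change of stress against control mice for the 10 genes with the largest rise and the 10 with the largest fall in cluster 1 (green points with standard errors), with the values for the same genes in other tumor cells, endothelial cells and monocytes. Camk1d, Lars2, Gphn and Cmss1 lie right of 1.5 in each cell type, and Dapk1 lies near -2.2 in both groups of tumor cells and right of -1 in endothelial cells and monocytes.

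Markers of other cell types were low in cluster 1. The 7 endothelial markers summed to 18.6 to 23.9 CPM in control and to 23.1 to 31.9 CPM in stress mice, and the 10 myeloid markers to 20.9 to 62.1 and 17.0 to 74.4 CPM. Of the 7 endothelial markers tested 1 was called (14.3%, against 7.15% of all genes higher) and of the 9 myeloid markers tested none. The called gene was Pecam1, which rose from 2.58 ± 0.648 to 6.48 ± 0.608 CPM (1.29 ± 0.20, edgeR adjusted p = 0.00654). The 8 hepatocyte, 5 stellate and 5 red cell markers each summed to less than 5 CPM in every mouse, and 1 stellate marker was at 0. The other tumor cells include cluster 17, where endothelial and myeloid markers summed to 236 and 270 CPM on average, the highest of the 10 tumor clusters. The part of RNA from other cells in the changes above was not tested.

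Whether stress acted on cluster 1 otherwise than on the remaining tumor cells was tested as an interaction over 17601 genes with mouse as a block. No gene passed (0%) in edgeR, with 2164 genes at an unadjusted p under 0.05. The same test called 521 genes with no filter on low counts, 20 without control mouse 2 and 8 without stress mouse 2. DESeq2 called 4, namely Plcb1, Glg1, Cmss1 and Egr1, and limma on the per-mouse differences called 1 without and 0 with a replicate block. The smaller median of the G2/M list in cluster 1, at -0.38 against -0.72, is therefore a description. Against cluster 4 alone, the cluster nearest in summed replication genes, 25 of 15404 genes (0.162%) passed.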

How the data were processed

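Tumors of 3 control and 3 stress mice were profiled by 10x Genomics single-cell RNA sequencing. The deposited matrices hold raw UMI counts per gene and cell, made by the authors with Cell Ranger (build mm10 per the submitters' notes; version 9.0.0 for control, 7.1.0 for stress per the file headers). Cell filtering, Harmony integration, Seurat clustering and cell type names are the authors' own, as deposited. The members and gene lists were chosen with earlier results of these data known. Cluster 1 UMIs, summed over the cells of each mouse, went into the quasi-likelihood F-test of edgeR 4.0.16 (R 4.3.3) with its expression filter and TMM scaling; p-values were Benjamini-Hochberg adjusted over all genes tested (threshold 0.05), and the script was tested on simulated data. For differential expression the study tested single cells, and it also compared pseudobulk endothelial profiles of the groups. Here the mouse is the replicate. Nothing says whether libraries of a group were prepared together or apart, and the Cell Ranger version differed between groups. The p-values therefore measure the spread between libraries within groups and cannot cover a technical difference shared by a whole group. CPM is relative to the plain total. Cells were thinned to 3000 UMIs and doublets called with Scrublet in scanpy 1.11.5. SDs are over mice. SEs are the absolute log2 fold change divided by the square root of F in the edgeR test. Named were the 10 largest rises and 10 largest falls among called genes of at least 50 CPM whose groups did not overlap, the 5 markers, and up to 4 called members per list, or the 2 of highest level. Alternatives were RLE scaling, no count filter, DESeq2 1.42.0, limma 3.58.1, a replicate block, no doublets, 491 cells per mouse, equal totals and leaving out each mouse. Promoters come from RefSeq.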

Additional observations from a re-analysis of the deposited data

Results flagged for a closer look

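The response to stress in cluster 1 differed from that in tumor cluster 4, the cluster nearest to it in replication genes, for 25 of 15404 genes (0.162%) by an interaction term with mouse as a block (edgeR, adjusted p under 0.05; 1223 genes at an unadjusted p under 0.05). Cluster 4 as a reference was planned as an alternative, and both clusters were drawn from the same transcripts, immediate-early genes and histones among them. Of the 18 immediate-early genes 2 passed, and the difference in log2 fold change (cluster 1 minus cluster 4) was -0.81 ± 0.15 for Fos (SE, edgeR adjusted p = 0.0262) and -0.72 ± 0.09 for Egr1 (edgeR adjusted p = 0.00233). In cluster 1 Egr1 went from 765 to 334 CPM, and in cluster 4 from 1670 to 1232 CPM. Its cluster 4 values were 1729, 1607 and 1675 CPM in control and 1049, 842 and 1804 CPM in stress mice. Stress mouse 3 thus lay above every control mouse there. In cluster 4 neither Egr1 nor Fos was called (edgeR adjusted p = 0.221 and 0.144).

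Of the 10 tested genes on the list of small nucleolar RNA host genes, 3 passed (Snhg12, Snhg1 and Snhg15, where 0.162% of all genes passed), each with a difference below 0. Snhg12 differed by -0.66 ± 0.09 (edgeR adjusted p = 0.00374), with means of 103 CPM in control and 75.5 CPM in stress mice in cluster 1 against 85.8 and 98.5 CPM in cluster 4. Snhg1 also differed by -0.66 ± 0.11 (edgeR adjusted p = 0.01), from 313 to 275 CPM in cluster 1 and from 246 to 340 CPM in cluster 4. In cluster 1, stress mouse 1 was at 336 CPM of Snhg1, above the control mice at 332, 310 and 299 CPM. Snhg12 and Snhg1 were called neither in cluster 1 (edgeR adjusted p = 0.0888 and 0.408) nor in cluster 4 (0.501 and 0.101). Snhg15 differed by -0.60 ± 0.10 (edgeR adjusted p = 0.00989), and so did Snhg16, a gene outside the list, by -0.65 ± 0.09 (edgeR adjusted p = 0.00374). Of 58 replication-dependent histones, 4 passed, each again with a difference below 0: H2ac8 (-0.50 ± 0.09), H2ac24 (-0.48 ± 0.09), H3c3 (-0.45 ± 0.08) and H3c6 (-0.43 ± 0.08). Snhg15, Snhg16 and these histones were picked after their values were seen. The uncharacterised transcript 5430416N02Rik differed by -0.65 ± 0.12 (edgeR adjusted p = 0.0246). Camk1d was the only gene of at least 50 CPM with a larger rise in cluster 1, by 0.38 ± 0.06 (edgeR adjusted p = 0.00932), at log2 fold changes of 2.45 in cluster 1 and 2.04 in cluster 4. The number of genes that passed fell to 4, 3 and 6 on leaving out control mouse 1, 2 or 3 and was 65 and 45 on leaving out stress mouse 1 or 2.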

How the results depend on the processing

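Leaving out each mouse in turn gave 760 to 2923 called genes (359 to 1352 higher, 381 to 1571 lower) against 2165. Other settings gave 1692 (491 cells per mouse) to 2821 (no count filter), with 2443 by DESeq2 and 2188 without called doublets. Leave-one-out ranges were 13 to 30 of the G2/M genes, 14 to 21 histones, 8 to 12 glycolysis genes, 4 to 6 mitochondrially encoded genes and 2 to 9 heat shock genes. Heat shock calls were 7 with no count filter, 7 with DESeq2 and 8 with the replicate block. The interaction with other tumor cells (0 genes) gave 521 genes with no count filter, 4 with DESeq2, 1 with limma without the block, 25 with cluster 4 as reference and 0 to 20 on leaving out a mouse; with cluster 4 the range was 3 to 65. The cause of these shifts was not tested.

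Same-numbered control and stress mice had correlated deviations of 0.38, 0.30 and -0.12, so the numbers were not taken to pair them; the replicate block gave 2811 genes. Of 67 called genes named by rule none reversed, and 44 passed in every alternative. Uncalled genes that changed sign were Pclaf (-0.011 with no filter; -0.0090 to 0.11 on leaving out a mouse), Fcer1g (-0.0031 without doublets; -0.15 to 1.0), Mt2 (-0.35 to 0.10), Gas5 (-0.47 to 0.12), Sox4 (-0.044 to 0.29), Eng (-0.19 to 0.012), S100a9 (-0.51 to 1.03) and Hbb-bs (-0.46 to 0.29).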

Other observations

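Ribosomal protein genes as a set stayed near the median of all genes: 4 of 81 were higher (4.94%, against 7.15% of all genes) and none lower, with a median log2 fold change of 0.02. Rpl10 stood at 596, 600 and 658 CPM in control and at 1315, 1135 and 1423 CPM in stress mice (log2 change 1.04 ± 0.12, edgeR adjusted p = 0.00312), while Rpl35 (0.77 ± 0.15, edgeR adjusted p = 0.0135) lost its call without control mouse 3 (0.0553). Many pseudogene copies of these genes exist, so their counts are uncertain. The other 2 called were Rps6 (0.45 ± 0.12), whose call was lost on leaving out any mouse but stress mouse 2 (edgeR adjusted p = 0.0654 to 0.161), and Rpl29 (0.54 ± 0.11), whose call was lost without control mouse 3 (0.0638).

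Of 22 interferon and MHC class I genes, 1 was higher and 1 lower (4.55% each, below the shares of all genes). B2m, the class I light chain, was called higher (0.31 ± 0.09, edgeR adjusted p = 0.0475) and lost its call on leaving out any mouse (0.0568 to 0.181). H2-K1, a class I heavy chain, fell from 294 ± 23.9 to 205 ± 22.9 CPM (log2 fold change -0.55 ± 0.10, edgeR adjusted p = 0.0104). Of 10 glucocorticoid-responsive genes tested, Errfi1 was called higher (10%, near the 7.15% of all genes), and the metallothionein gene Mt1 had 0.22 ± 0.16 (edgeR adjusted p = 0.375). The call of Errfi1 (edgeR adjusted p = 0.0457) was kept only with stress mouse 3 left out and lost on leaving out any other mouse (0.0701 to 0.144). None of 9 tumor epithelial and oncofetal genes was called by edgeR. Krt18, a keratin of liver tumor cells, was at 256, 294 and 268 CPM in control and at 430, 335 and 337 CPM in stress mice (edgeR adjusted p = 0.0858; DESeq2 0.0297).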
